A study of Mus musculus with 8 samples.

Results

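Lymphatic endothelial markers were examined in endothelial cells sorted from Lewis lung carcinoma (LLC) tumors of mice. The 5 marker genes, Prox1, Pdpn, Lyve1, Reln and Mmrn1, were taken by symbol from the expression tables, and all 5 were found among 33641 gene symbols. LLC is a mouse lung carcinoma line, and its cells were placed in the left lung lobe of adult mice. After 21 days the tumors were dissected and the CD45-CD31+ cells, tumor-associated endothelial cells (TECs), were collected by FACS and their total RNA was sequenced. There were 4 control libraries, called C1 to C4 here, and 4 endFoxf1+/- libraries, called H1 to H4. The endFoxf1+/- mice carried Pdgfb-CreER and a floxed Foxf1 allele (Pdgfb-CreER tg/+; Foxf1 fl/+), and tamoxifen removed the exon coding for the DNA-binding domain from that allele. The study also describes tamoxifen-treated controls, and its scheme of the LLC model has tamoxifen-treated mice inoculated. Controls were given by the labels as control only, and the study names littermates with the floxed allele alone or the Cre transgene alone in its account of the mice, but C57Bl/6 wild-type mice in its methods for the LLC model. Deletion was limited to cells in which the Pdgfb promoter drives Cre, and the activity of that promoter in lymphatic cells was not measured here. From published single-cell data, the study reports that lymphatic cells did not express Foxf1. The labels give no age or sex for a library, and do not say whether the RNA of several mice was pooled, so p-values measure the spread between these libraries.

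Lymphatic vessels drain fluid and immune cells from tissue, and their endothelium arises largely from veins. PROX1 is the transcription factor that sets and keeps lymphatic endothelial identity. VEGFC and VEGFD act on lymphatic cells through the receptor VEGFR3, encoded by Flt4. PDPN and LYVE1 are surface glycoproteins of lymphatic endothelium, while RELN and MMRN1 are secreted proteins that lymphatic cells make in quantity. Most of these markers are not restricted to lymphatic cells: PDPN is also made by alveolar type 1 cells, mesothelium and fibroblasts, LYVE1 by some macrophages and lung capillaries, and MMRN1 by platelets.

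The genes lie on GRCm38 chromosomes as annotated by GENCODE. Prox1 occupies chr1:190118035-190170714 on the minus strand, Pdpn chr4:143267431-143299564 on the minus strand and Lyve1 chr7:110850607-110863239 on the minus strand. Reln occupies chr5:21884454-22344702 on the minus strand and Mmrn1 chr6:60924976-60989378 on the plus strand. Prox1 overlaps the antisense genes Prox1os, over 419 bases, and Gm28172, over 964 bases, and the library kit does not mark strand, so reads from the shared bases cannot be told apart. The same holds for Reln, which overlaps 7 annotated genes and pseudogenes, among them the antisense genes Gm10475, over 43084 bases, and Gm16110, over 1677 bases. These overlaps are of whole gene spans with introns, and shared exon bases were not counted. Reln spans 460249 bases, and its longest coding transcript has 11699. RefSeq promoters of build GRCm38.p6 were found for 4 of the 5 members. The 250 bases before the start are shown for Prox1, the lineage factor, for Pdpn, the marker whose groups did not overlap, and for Mmrn1, a secreted marker shared with platelets, with motif matches in capitals. RefSeq gives Prox1 a second start, whose window held no match and is not shown. The Prox1 window is chr1:190170828-190171077 on the minus strand, the Pdpn window chr4:143299565-143299814 on the minus strand and the Mmrn1 window chr6:60944067-60944316 on the plus strand. The RefSeq start used for Mmrn1 lies inside the span that GENCODE gives to the gene.
Prox1: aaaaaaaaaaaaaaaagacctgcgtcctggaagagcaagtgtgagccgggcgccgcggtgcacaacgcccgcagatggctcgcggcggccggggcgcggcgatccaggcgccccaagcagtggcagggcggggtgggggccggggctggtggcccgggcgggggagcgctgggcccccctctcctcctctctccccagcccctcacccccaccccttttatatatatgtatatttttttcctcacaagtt
Pdpn: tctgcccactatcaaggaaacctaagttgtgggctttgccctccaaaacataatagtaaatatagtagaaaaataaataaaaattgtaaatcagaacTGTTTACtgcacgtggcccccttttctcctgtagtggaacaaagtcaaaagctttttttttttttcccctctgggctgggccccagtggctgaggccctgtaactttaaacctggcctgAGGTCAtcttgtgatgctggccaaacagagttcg
Mmrn1: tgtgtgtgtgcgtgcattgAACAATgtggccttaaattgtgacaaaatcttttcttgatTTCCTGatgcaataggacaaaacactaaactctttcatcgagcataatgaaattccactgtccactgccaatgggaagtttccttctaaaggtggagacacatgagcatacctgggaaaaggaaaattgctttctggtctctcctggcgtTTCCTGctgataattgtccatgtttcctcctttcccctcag
Both strands were searched for the forkhead letters GTAAACA, the SOX letters AACAAT, the nuclear receptor letters AGGTCA and the ETS letters CAGGAA. The Pdpn window held the forkhead letters on the opposite strand, as TGTTTAC, from 153 to 147 bases before the start, and AGGTCA from 34 to 29 bases before it. The Mmrn1 window held AACAAT from 231 to 226 bases before the start and the ETS letters on the opposite strand, as TTCCTG, at 191 to 186 and at 41 to 36 bases. No match overlapped another. The Prox1 and Reln windows held none of these letters. Among 32851 promoter windows of the same length, 3.17% held the forkhead letters, 9.42% the SOX letters, 14.02% the nuclear receptor letters and 25.7% the ETS letters. GC content was 64.8% for the Prox1 window shown and 56.0% for the other, 43.2% for Pdpn, 42.4% for Mmrn1 and 80.0% for Reln, beside a median of 52.4% over all windows.

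H3 and H4 stood apart from the other libraries. The geometric mean of 10 pan-endothelial markers, as a share of its control mean, was 87.0% to 109% in the controls, 105% in H1 and 102% in H2. It was 5.57% in H3 and 52.8% in H4. The median correlation of H3 with the other libraries was 0.795 and that of H4 was 0.892, against 0.958 to 0.968 for the rest. Ptprc, which encodes the CD45 that the sort selected against, was at 2.94 to 9.13 TPM in controls and at 16.5, 9.93, 91.2 and 6.61 TPM in H1 to H4. In H3 it exceeded Pecam1, at 77.5 TPM, which goes against the label of CD45-CD31+ cells for that library. TPM is scaled to the same total in every library, so these files do not give sequencing depth. In bulk RNA, fewer endothelial cells and less RNA per endothelial cell cannot be told apart. Foxf1, the targeted gene, was at 213, 285, 296 and 331 TPM in controls and at 177, 203, 14.04 and 105 TPM in H1 to H4. All endFoxf1+/- libraries were below all controls (log2 difference -1.68, adjusted p = 0.790 by limma, exact two-sided permutation p = 0.0286). Without H3 the Foxf1 difference was -0.83. Relative to the pan-endothelial markers the Foxf1 difference was -0.45 with overlapping groups (exact permutation p = 0.0571).

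Lyve1 was by far the most abundant lymphatic marker and Prox1 the least. Levels are given as TPM, which is scaled for transcript length, and as a percentage of Pecam1, which encodes the CD31 used in the sort. In controls Lyve1 stood at 35.2% ± 4.27 of Pecam1 (SD, n = 4) and Mmrn1 at 1.07% ± 0.190. Pdpn was at 0.366% ± 0.0571, Reln at 0.121% ± 0.0682 and Prox1 at 0.0559% ± 0.0169 of Pecam1. Averaged over the controls, Lyve1 exceeded 98.6% of the genes listed above 0 in a library, Mmrn1 61.6%, Pdpn 45.3%, Reln 29.9% and Prox1 21.7%.

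Set against 12 genes of blood vessel endothelium, the members split into Lyve1 and the rest. On the log2(TPM + 1) scale, the median blood gene lay 0.50 ± 0.24 below Lyve1 in controls (SD, n = 4). The distance from that median was -4.45 for Mmrn1, -5.81 for Pdpn, -7.02 for Reln and -7.52 for Prox1. Adding 1 to TPM understates this distance for genes near or under 1 TPM, such as Prox1 and Reln. In every library all 12 blood genes and all 10 pan-endothelial genes exceeded Prox1, Reln and Mmrn1. The same was true of Pdpn except in H3, where 7 of the 12 and 7 of the 10 exceeded it. Lyve1 was exceeded by 1 to 4 of the blood genes. Car4, a capillary carbonic anhydrase, was the highest blood gene by mean and Aplnr, the apelin receptor, the lowest, at control means of 1389 and 62.7 TPM.

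**Figure D1:**
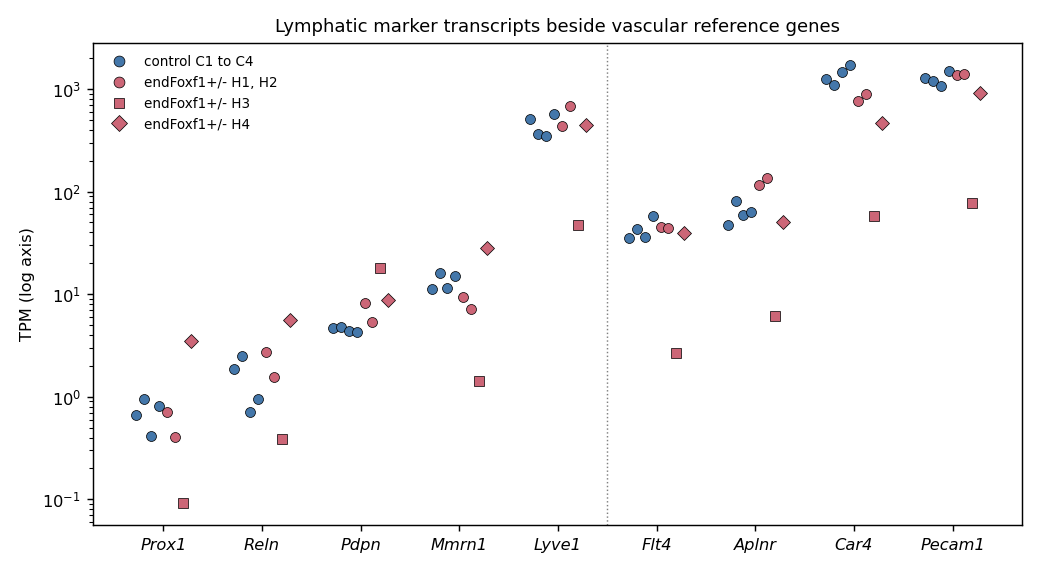
TPM of the 5 lymphatic markers beside endothelial genes in each of the 8 libraries, on a log axis. Lyve1 lies between the blood endothelial genes Aplnr and Car4 in every library, and Prox1 lies lowest at a control mean of 0.710 TPM.

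The order by mean was Lyve1, Mmrn1, Pdpn, Reln and Prox1. Differences in this paragraph are of log2(TPM + 1), which understates the gaps between low genes. Lyve1 was above Mmrn1 in 8 of 8 libraries, by 4.98 ± 0.77 (SD, n = 8). Mmrn1 and Pdpn were not separated beyond their spread, with a difference of 0.58 ± 1.53 and Mmrn1 higher in 7 of 8. Without H3 that difference was 1.08 ± 0.59. Pdpn exceeded Reln in 8 of 8 libraries by 1.47 ± 0.998, and Reln exceeded Prox1 in 8 of 8 by 0.61 ± 0.35. Lyve1 supplied 90.6% to 97.9% of the summed TPM of the 5 members in 7 libraries and 70.5% in H3. The ratio of Lyve1 to Prox1 ran from 126 in H4 to 1653 in H2.

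The comparison of endFoxf1+/- with control TECs asked whether loss of a Foxf1 allele went with a different level of lymphatic markers. None of the members passed limma at an adjusted p of 0.05, and neither did any of the 14964 genes tested (0% called, smallest adjusted p 0.305). Of the 4 members tested, 2 were higher and 2 lower, with a median log2 difference of -0.15, beside -0.17 over all genes tested. At an unadjusted limma p under 0.05, 1 member was higher and 0 were lower, beside 2.82% of all genes higher and 2.77% lower. By groups that did not overlap, 1 member was higher and 0 lower, beside 2.73% higher and 2.31% lower over all genes.

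Prox1 was at 0.665, 0.953, 0.413 and 0.811 TPM in C1 to C4 and at 0.710, 0.410, 0.0922 and 3.53 TPM in H1 to H4. H4 was the highest and H3 the lowest of all, and the groups overlapped. The means were 0.710 ± 0.230 and 1.19 ± 1.58 TPM (SD, n = 4 each), a difference of 0.13 on the log2(TPM + 1) scale (exact permutation p = 0.914). Prox1 reached 1 TPM in 1 library and missed the filter for limma. The difference was -0.30 without H4 and 0.39 without H3, and it was -0.10 with a pseudocount of 0.1, so its sign depended on H4 and on the pseudocount.

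Pdpn was at 4.73, 4.82, 4.37 and 4.30 TPM in controls and at 8.15, 5.34, 18.0 and 8.69 TPM in H1 to H4. Each endFoxf1+/- library was above each control, and H3 was the highest. The means were 4.55 ± 0.259 and 10.04 ± 5.49 TPM (SD, n = 4 each), a log2 difference of 0.87 (SE 0.34, 95% interval 0.11 to 1.63). The limma p was 0.0288 before and 0.790 after adjustment, and the exact permutation p was 0.0286, the smallest that 4 against 4 allows. With any 1 control left out the difference was 0.85 to 0.90 and the groups still did not overlap. The exact permutation p was then 0.0571. The difference was 0.57 without H3 and 0.46 without both H3 and H4. The difference was 0.996 after quantile and 1.06 after median-ratio scaling, and the groups overlapped in both (exact permutation p = 0.0571 for each).

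Lyve1 was at 512, 365, 350.4 and 568 TPM in controls and at 436, 677, 47.4 and 443 TPM in H1 to H4. H2 was the highest and H3 lay far below the other 7, which overlapped between groups. The means were 449 ± 108 and 401 ± 261 TPM (SD, n = 4 each), and the log2 difference was -0.64 (SE 0.73, 95% interval -2.27 to 0.99, limma adjusted p = 0.820, exact permutation p = 0.8). It was 0.21 without H3.

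Reln, which encodes the secreted glycoprotein reelin, was at 1.87, 2.47, 0.717 and 0.960 TPM in controls and at 2.74, 1.57, 0.388 and 5.55 TPM in H1 to H4. As for Prox1, H4 was highest and H3 lowest, and the groups overlapped. The means were 1.51 ± 0.814 and 2.56 ± 2.21 TPM (SD, n = 4 each), with a log2 difference of 0.34 (SE 0.47, 95% interval -0.72 to 1.41, limma adjusted p = 0.844, exact permutation p = 0.571). The difference was -0.02 without H4 and 0.72 without H3.

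Mmrn1, which encodes the coagulation factor V binding protein multimerin 1, was at 11.2, 15.9, 11.5 and 15.1 TPM in controls and at 9.35, 7.12, 1.44 and 28.0 TPM in H1 to H4. H1, H2 and H3 were below every control and H4 was above every control. The means were 13.5 ± 2.41 and 11.5 ± 11.5 TPM (SD, n = 4 each), and the log2 difference was -0.70 (SE 0.63, 95% interval -2.11 to 0.70, limma adjusted p = 0.797, exact permutation p = 0.457). Without H4 it was -1.28 with no overlap (exact permutation p = 0.0286, limma adjusted p = 0.806), and without H3 it was -0.09.

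**Figure D2:**
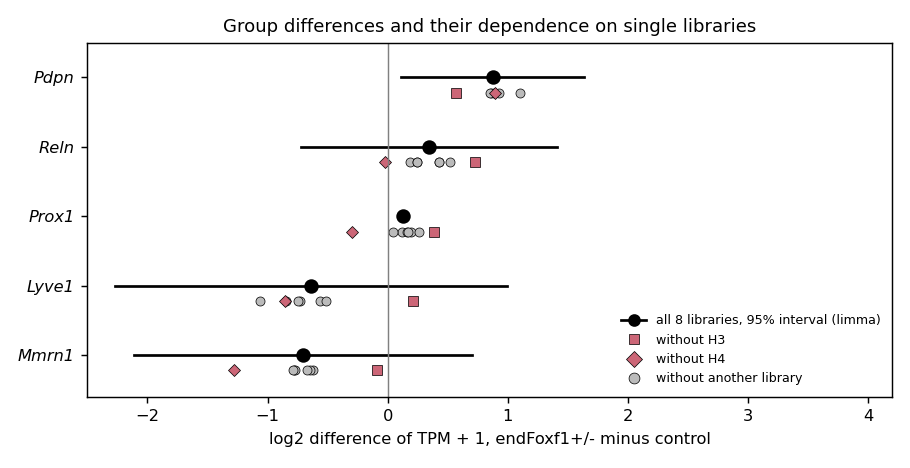
Log2 difference of TPM + 1, endFoxf1+/- minus control, for each member with all 8 libraries (black, with the 95% limma interval where the gene was tested) and with each library left out. Pdpn stays above 0 at 0.57 to 1.10, whereas Prox1, Reln and Lyve1 lie on both sides of 0.

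Because endothelial markers were low in H3 and H4, each member was also set against the mean of the pan-endothelial markers, as 5 unadjusted comparisons. Pdpn was higher in endFoxf1+/- libraries by 2.10 log2 units with no overlap (exact permutation p = 0.0286). This reference shifts the difference of every gene by the same amount, so the larger size is not a separate result about Pdpn. How many of all genes did not overlap on this scale was not counted. For Pdpn the exact permutation p was 0.171 with any 1 control left out, although the groups still did not overlap. With unequal groups, splits that put H3 in the smaller group can give larger differences. With a pseudocount of 5 the exact permutation p was 0.0571. The difference was 0.84 without H3 (exact permutation p = 0.0286) and 0.40 without H3 and H4 (exact permutation p = 0.0667, the smallest that 2 against 4 allows). With the blood endothelial list as reference it was 2.04 and the groups overlapped (exact permutation p = 0.0571), as they did with Pecam1 (1.92, exact permutation p = 0.0857). The other differences relative to the pan-endothelial markers were 1.36 for Prox1 (exact permutation p = 0.371), 0.59 for Lyve1 (0.0857), 1.57 for Reln (0.114) and 0.52 for Mmrn1 (0.457), and the groups overlapped for each. Adding 1 to TPM raises the relative value of a low gene in H3, and without it the Prox1 difference was 0.95. Without H3 the relative difference was 0.65 for Prox1, 0.99 for Reln and 0.18 for Mmrn1, and without H4 it was 0.05 for Mmrn1. Without H3 and H4 it was -0.18 for Prox1, 0.25 for Lyve1, 0.31 for Reln and -0.70 for Mmrn1.

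As a percentage of Pecam1 without a pseudocount, Lyve1 was at 32.0%, 48.4%, 61.2% and 48.5% in H1 to H4, beside 30.4% to 39.7% in controls. H2, H3 and H4 lay above all controls and H1 among them. Reln was at 0.201%, 0.112%, 0.501% and 0.607%, Mmrn1 at 0.686%, 0.509%, 1.85% and 3.07%, and Prox1 at 0.0521%, 0.0293%, 0.119% and 0.386% in H1 to H4. For Prox1, Reln and Mmrn1 both H3 and H4 exceeded the highest control, although Prox1 and Reln were under 1 TPM in H3. Pdpn reached 23.2% in H3, and the mean of the endFoxf1+/- libraries was 6.28% ± 11.3 with H3 and 0.643% ± 0.287 without it.

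**Figure D3:**
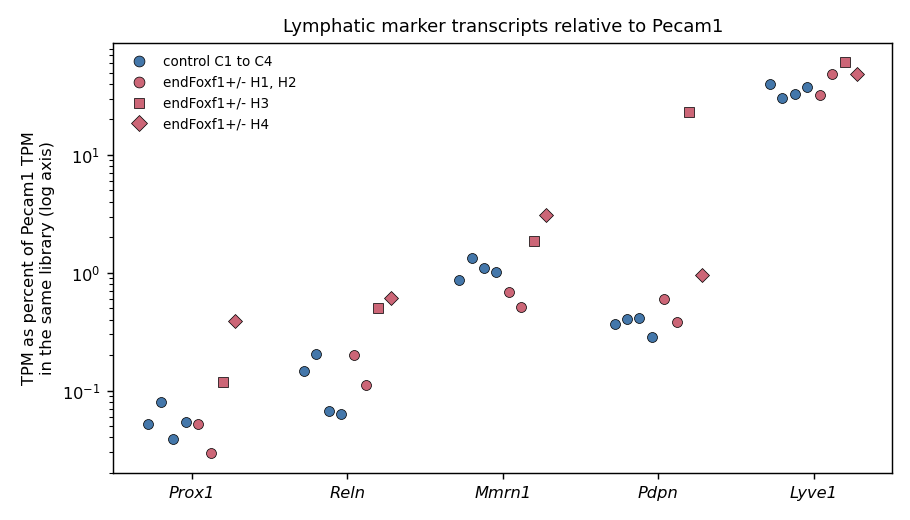
Each member as a percentage of Pecam1 TPM by library, on a log axis, control and endFoxf1+/-. Pdpn in H3, at 23.2%, lies farthest from its group, and Lyve1 remains between 30.4% and 61.2% in all 8 libraries.

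H4 held the highest level of Prox1, Reln and Mmrn1, as of 16.2% of all genes tested, and H3 the lowest level of 4 of the 5 members, as of 55.7% of all genes tested. Over the mean of the 6 libraries C1 to C4, H1 and H2, H4 was 5.35-fold for Prox1, 3.23-fold for Reln, 2.39-fold for Mmrn1, 1.64-fold for Pdpn and 0.915-fold for Lyve1. Thus 4 of 5 members lay above the range of those 6 libraries in H4, as did 19.5% of all genes tested. In H3, 4 of 5 lay below that range, as did 66.6% of all genes tested, with Prox1 at 0.140 of the mean, Mmrn1 at 0.123, Lyve1 at 0.0979 and Reln at 0.226. Pdpn alone lay above it, at 3.40-fold, as did 14.6% of genes. These libraries were singled out after their values were seen.

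**Figure D4:**
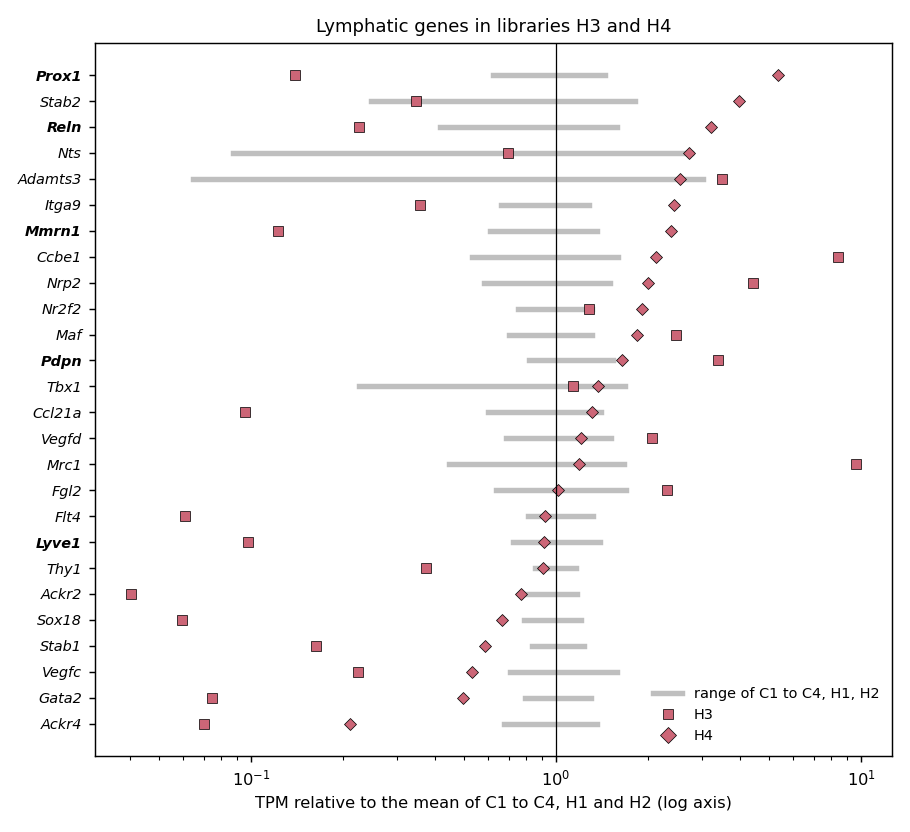
Level in H3 and in H4 over the mean of C1 to C4, H1 and H2 for the members and other lymphatic genes, on a log axis; Foxc2 and Cldn11 are left out because a value is listed at 0. Prox1 is at 5.35-fold in H4 and 0.140-fold in H3, while Pdpn is above 1 in both.

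Of 23 other genes of the lymphatic programme, 18 were tested and none passed limma at an adjusted p of 0.05 (0% of all genes). Among the 18, 8 were higher and 10 lower, with a median log2 difference of -0.21, beside -0.17 over all genes. By groups that did not overlap 5 were higher and 0 lower, beside 2.73% and 2.31% of all genes. At an unadjusted p under 0.05, 5 were higher and 1 lower, beside 2.82% and 2.77%. The 5 were Vegfd, Ccbe1, Nrp2, Maf and Mrc1, each with an exact permutation p of 0.0286 and a limma adjusted p of 0.790. All 5 were highest in H3, beside 13.1% of all genes tested. Without H3 their log2 differences were 0.49 for Vegfd, 0.98 for Ccbe1, 0.88 for Nrp2, 0.58 for Maf and 0.85 for Mrc1.

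Among ligands and their processing, Vegfd averaged 6.42 ± 1.19 TPM in controls and 10.9 ± 3.34 TPM in endFoxf1+/- libraries (SD, n = 4 each), a log2 difference of 0.66. Ccbe1, whose product helps to process VEGFC, averaged 2.59 ± 0.717 and 11.9 ± 11.8 TPM, a difference of 1.51, and was highest in H3 at 29.5 TPM. Vegfc went the other way, at 38.9 ± 11.9 and 19.1 ± 8.32 TPM, with a difference of -1.07 and overlapping groups (exact permutation p = 0.0571), and of -0.71 without H3. The protease gene Adamts3 was under 1 TPM in all libraries.

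Of the receptors, Flt4 was at 35.1 to 57.3 TPM in controls and at 45.2, 44.1, 2.65 and 39.9 TPM in H1 to H4, so that H3 alone was outside the control range. Prox1 was 1.15% to 2.21% of Flt4 in controls and 1.57%, 0.929%, 3.48% and 8.84% of it in H1 to H4. H3 and H4 were above and H2 below every control. The H3 value rests on Prox1 at 0.0922 TPM, its lowest level, and Flt4 at 2.65 TPM. Nrp2, a co-receptor for VEGFC, averaged 15.8 ± 3.73 and 43.6 ± 28.2 TPM (SD, n = 4 each), a log2 difference of 1.25, with H3 highest at 84.7 TPM. Itga9, an integrin subunit of lymphatic valves, differed by -0.04 and was highest in H4 at 60.6 TPM.

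Among transcription factors, Sox18, which acts upstream of Prox1, differed by -0.97 (exact permutation p = 0.514), and Gata2, a factor of lymphatic valves, by -1.36 (exact permutation p = 0.0857), both with overlapping groups. Sox18 was at 304 and 338 TPM in H1 and H2, within the control range of 227 to 350 TPM, and at 17.1 TPM in H3. Without H3 the differences were 0.0033 for Sox18 and -0.57 for Gata2. Nr2f2, the venous factor COUP-TFII and a partner of PROX1, averaged 6.72 and 10.4 TPM, a difference of 0.57. Maf averaged 2.17 ± 0.304 and 4.41 ± 1.43 TPM (SD, n = 4 each), a difference of 0.74. Foxc2 and Tbx1 missed the filter.

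In the group of chemokine handling and surface genes, Ccl21a, the chemokine with which lymphatic vessels draw dendritic cells, averaged 68.0 ± 24.8 and 64.8 ± 41.5 TPM (SD, n = 4 each), a log2 difference of -0.51 with overlapping groups (exact permutation p = 0.8286). It was at 6.87 TPM in H3, and without H3 the difference was 0.35. Near-identical copies of Ccl21a exist, so its level is uncertain. Mrc1, the mannose receptor of macrophages and lymphatic endothelium, averaged 2.03 ± 0.528 and 10.5 ± 12.2 TPM, with 28.8 TPM in H3, a log2 difference of 1.46. Cldn11, a junction gene of lymphatic valves, was listed at 0 in 7 libraries and at 2.06 TPM in H4.

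Markers of other cells that express some members moved with H3 and H4, and their part in the member values was not tested. Fibroblast and pericyte markers, 10 of 10 tested, summed to 62.1 to 122 TPM in controls and to 179, 119, 1320 and 302 TPM in H1 to H4. The list did not move as one: 6 genes were higher and 4 lower, and the H3 sum came mostly from the matrix genes Col3a1 (556 TPM), Dcn (533 TPM) and Lum (183 TPM). The pericyte gene Rgs5 was at 10.7 to 18.9 TPM in controls and at 3.71, 3.73, 0.602 and 6.66 TPM in H1 to H4, below every control. Dcn, Lum and Rgs5 were named after their values were seen. Pdpn was highest in H3, then H4. The 7 alveolar type 1 markers summed to 657 to 818 TPM in controls and to 59.7 to 656 TPM in endFoxf1+/- libraries. Most of the control sum was Clic5 and Hopx, at control means of 329 and 217 TPM and at 220 and 69.2 TPM in H4. Hopx was named after its values were seen. In H3, where Pdpn was highest, 7 of 7 were lowest, beside 55.7% of all genes tested. The 6 mesothelial markers summed to 6.67 to 31.0 TPM in controls and to 8.31 to 37.9 TPM in endFoxf1+/- libraries. In H4, where Prox1, Reln and Mmrn1 were highest and Pdpn was exceeded only by H3, 5 of 7 alveolar type 1, 6 of 8 alveolar type 2 and epithelial and 4 of 6 mesothelial markers were at their highest, beside 16.2% of all genes tested.

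Of 10 macrophage markers, 9 were tested and 9 had a higher mean on the log2 scale in endFoxf1+/- libraries. Over all genes tested, 4782 were higher and 10182 lower. Among the 9, Fcgr1 was at 0.402 to 0.716 TPM in controls and at 1.07 to 17.2 TPM in endFoxf1+/- libraries. It passed the filter through the endFoxf1+/- libraries only, so its direction was fixed by the filter and adds nothing to the count. The 10 genes summed to 1452 to 5048 TPM in controls and to 1824 to 8378 TPM in endFoxf1+/- libraries, of which Lyz2, a gene that alveolar type 2 cells also express, gave 82.0% to 98.1%. Without Lyz2 the sum was 53.7 to 113 TPM in controls and 193, 241, 1508 and 130 TPM in H1 to H4. In all, 9 of 10 were highest in H3, the library with the least Lyve1, beside 13.1% of all genes tested. T and B lymphocyte markers summed to 5.11 to 10.7 and 7.59 to 41.8 TPM, and alveolar type 2 and epithelial markers to 6389 to 30946 and 1469 to 25962 TPM.

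The 8 platelet and megakaryocyte markers summed to 786 to 1658 TPM in controls and to 604, 477, 350 and 911 TPM in H1 to H4. All 8 were lower in endFoxf1+/- libraries, 7 of them at an unadjusted limma p under 0.05 and 4 without overlap, beside 2.77% and 2.31% of all genes. Mmrn1 was below controls in H1, H2 and H3, but in H4 it was above every control at 28.0 TPM. The list was split in H4: Itgb3 was above every control at 58.4 TPM, Itga2b, Gp1bb, Gp9 and Treml1 were below every control, and the sum, mostly Pf4 and Ppbp, lay within the control range. These genes were named after their values were seen. No marker in any of these lists was at 0 in all libraries.

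**Figure D5:**
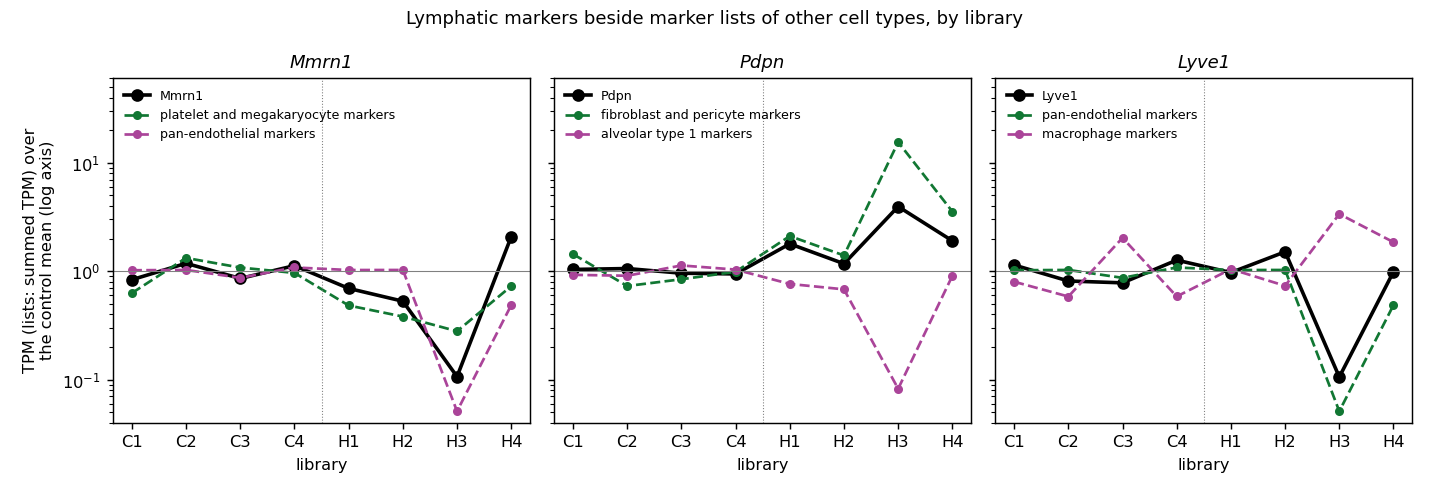
Summed TPM of marker lists of other cells, with Mmrn1, Pdpn and Lyve1 beside them in 1 panel each, each over its control mean on a log axis; lines join libraries only to guide the eye. The fibroblast and pericyte sum peaks in H3 at 1320 TPM, mostly from Col3a1, Dcn and Lum, while the pericyte gene Rgs5 is at 0.602 TPM there, and the platelet sum is lowest there at 350 TPM.

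For each member the 3 genes with the most similar pattern were found by Pearson's r of log2(TPM + 1) over the 8 libraries, which share the same H3 and H4. For Prox1 they were Hivep2 (r = 0.988), Rwdd2b (0.985) and Nmb (0.980). With H3 and H4 left out, r for Hivep2 was 0.841. For Pdpn they were Tex30 and Dpysl3 (0.991 each) and Amot (0.987). For Lyve1 they were Arhgef2 (0.996), Ifitm10 (0.995) and Snx19 (0.995), and for Reln they were Tab2 (0.976), Gm6397 (0.971) and Il13ra1 (0.967). No member was among the 3 genes most like another. For Mmrn1 they were Lipo3 (0.991), Itgb3 (0.989) and Nrgn (0.983). Itgb3 encodes the integrin beta3 subunit of platelets and of angiogenic endothelium, and without H3 and H4 its r with Mmrn1 was 0.977.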

How the data were processed

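Total RNA of FACS-sorted TECs was made into libraries with Nextera XT. The deposited tables hold 1 TPM value per gene and library, which the authors scaled to the same total in each library. Per the labels, processing notes name TopHat, Cufflinks, Subread and DESeq2 and the builds GRCm38 and mm10, without roles, so the tool that gave the TPM is not given in the sources used here. Counts were not used here and depth is unknown. No 2 libraries held identical values.

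TPM were transformed to log2(TPM + 1), which understates changes of low genes. The 14964 genes that reached 1 TPM in 4 or more libraries were fitted with limma 3.58.1 in R 4.3.3 (trend, no covariates, all 8 libraries), with Benjamini-Hochberg adjustment over these genes and a threshold of 0.05. Exact two-sided permutation tests used all 70 assignments of the 8 libraries, or all assignments of the libraries kept where some were left out. The fit was tested on simulated data. Alternatives were pseudocounts, filters, scaling, array weights, trend, other reference genes, and leaving out libraries. The members and gene lists were chosen with earlier results of these data known. Named genes were the members, the lymphatic programme list, the 3 genes most like each member, Foxf1, Pecam1, the highest and lowest blood endothelial genes and the highest gene of other marker lists. Dcn, Lum, Rgs5, Hopx, Fcgr1, Ptprc and platelet genes, and the values without H3 or without Lyz2 for the lists, were added after seeing the data. Gene lists covered the lymphatic programme, pan-endothelial, blood endothelial, macrophage, T and B lymphocyte, fibroblast and pericyte, alveolar type 1, alveolar type 2 and epithelial, mesothelial, and platelet and megakaryocyte genes. Promoter sequences came from RefSeq (GRCm38.p6).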

Additional observations from a re-analysis of the deposited data

How the results depend on the processing

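No member that limma tested passed an adjusted p of 0.05 under the 17 alternatives. Limma tested Prox1 only without the filter (adjusted p = 0.931), and did not test Reln at a minimum TPM of 5. No paired analysis was possible because the labels give each library a number of its own that no other library shares, and replicate numbers here follow accession order. Signs held under every alternative for Pdpn (0.46 to 1.10) and Mmrn1 (-1.28 to -0.09). Prox1 was -0.10 with a pseudocount of 0.1, -0.30 without H4 and -0.13 without H3 and H4 (0.39 at most, without H3). Lyve1 was 0.17 with array weights, 0.21 without H3 and 0.31 without H3 and H4 (-1.06 at the lowest). Reln was -0.023 without H4 (0.72 at most). The cause of these changes was not tested. Relative to the pan-endothelial markers, Prox1 was -0.18 and Mmrn1 -0.70 without H3 and H4. Pdpn no longer passed with a pseudocount of 5 (1.76), against Pecam1 (1.92), against the blood list (2.04) or without H3 and H4 (0.40). Nor did it pass without a control (2.03 to 2.15), although the groups still did not overlap there. It ranged from 0.84 to 2.75 with a library left out. Lyve1 reached an exact p of 0.0286 without H1 (0.81, range 0.47 to 0.81) and Reln without H2 (2.07, range 0.99 to 2.07). Without a pseudocount, an alternative chosen after seeing the data, Pdpn was 2.24. The median over all genes was -0.17, against -0.05 after quantile and -0.01 after median-ratio scaling. Over all genes, array weights called 148, leaving out H3 and H4 called 2 and leaving out C1 called 1. H3 had a weight of 0.0643 and H4 0.178. Depth is unknown, so no counting error can be given for the low values of Prox1.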
